A study of Mus musculus with 23 samples.

Results

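The transcripts of 9 genes were followed across sorted splenic dendritic cells (DCs) of wild type BALB/c mice: Esam, Cd4, Cd209a, Clec10a, Clec12a and Mgl2, which are used as markers of cDC2 cells, and Notch2, Rbpj and Dtx1 of the Notch pathway. They were found by their symbols, and 9 of the 47729 gene ids of the count table (0.0189%) were members. The RNA of 23 libraries was sequenced. The cells had been sorted from pools of mice as DC1a (CD8hi CD172-), DC1b (CD8Int CD172+), DC2 (CD8lo CD172hi) and DC3 (CD8- CD172lo). The mice were untreated or had received TLI, an abbreviation that the labels do not spell out and for which they give no dose or interval. Each subset had 2 untreated libraries, from pools 1 and 2 of batch 1. DC1a, DC1b and DC3 each had 4 TLI libraries, from pools 1 and 2 of batch 1 and pools 3 and 4 of batch 2, and DC2 had 3, from pools 1, 3 and 4. The DC2 library of TLI pool 2 was not analysed here. The libraries held 19256447 to 36997890 counts each. All values below are CPM, a gene's counts scaled to the same total in every library, unless another scale is named.

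Conventional DCs of the spleen fall into cDC1 cells, which cross-present antigen to CD8+ T cells, and cDC2 cells, which mainly prime CD4+ T cells and carry CD172 (the product of Sirpa). Notch receptors are cut when a Delta or Jagged ligand on a neighbouring cell binds them, and the freed intracellular part enters the nucleus and joins RBPJ on DNA to switch on target genes. In the mouse spleen, Notch2 signals are known to be needed for the cDC2 cells that carry ESAM and often CD4. In bulk samples such as these, fewer cells that make a transcript and less of it per cell cannot be told apart.

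The 9 genes lie on GRCm38 as follows. The adhesion molecule gene Esam is at chr9:37528078-37538319 on the + strand, and Cd4, which encodes the coreceptor of helper T cells that is also found on many cDC2 cells, is at chr6:124864692-124888221 on the - strand. The C-type lectin genes are Cd209a (DC-SIGN) at chr8:3743397-3748984 on the - strand, Clec12a, an inhibitory receptor for uric acid crystals, at chr6:129342691-129365303 on the + strand, and the neighbours Mgl2 at chr11:70130329-70137550 and Clec10a at chr11:70156197-70170834, both on the + strand and both galactose-type lectins. Mgl2 and Clec10a are close copies: 6.38% of the 76-base windows of Mgl2 transcripts and 4.32% of those of Clec10a also occur in the other gene, so the counts of both are less certain. The receptor gene Notch2 is at chr3:98013527-98150361 on the + strand, Rbpj at chr5:53466152-53657362 on the + strand, and Dtx1, which encodes the E3 ligase Deltex1 and is itself a known Notch target, at chr5:120680202-120711927 on the - strand. Rbpj shares 8.95% of its windows with other genes, among them the pseudogene Rbpj-ps3, and 541 exon bases of Notch2 overlap Gm42820 on the same strand.

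Promoter sequence is shown for the receptor gene, for the gene of the DNA-binding partner and for the lectin genes Cd209a and Mgl2, which passed the test between subsets after TLI. The stretches are the part of the 250 bases before each RefSeq start site (GRCm38.p6) that no annotated exon covers, 5′ to 3′ on the gene's strand. They span chr3:98013288-98013526 for Notch2, chr5:53590096-53590213 for Rbpj, chr8:3748985-3749234 for Cd209a and chr11:70130107-70130328 for Mgl2. The Rbpj stretch lies in an intron of longer Rbpj transcripts, and the others lie outside their genes. Capitals mark TGGGAA or, on the other strand, TTCCCA, the core letters that RBPJ is known to bind.
Notch2: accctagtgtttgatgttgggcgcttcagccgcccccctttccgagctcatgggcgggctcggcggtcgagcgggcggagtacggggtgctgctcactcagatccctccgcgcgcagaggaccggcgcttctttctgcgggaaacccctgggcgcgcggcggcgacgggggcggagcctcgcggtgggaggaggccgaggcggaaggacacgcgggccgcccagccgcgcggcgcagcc
Rbpj: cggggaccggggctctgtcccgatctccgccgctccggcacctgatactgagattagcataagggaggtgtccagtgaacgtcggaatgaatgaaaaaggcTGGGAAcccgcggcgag
Cd209a: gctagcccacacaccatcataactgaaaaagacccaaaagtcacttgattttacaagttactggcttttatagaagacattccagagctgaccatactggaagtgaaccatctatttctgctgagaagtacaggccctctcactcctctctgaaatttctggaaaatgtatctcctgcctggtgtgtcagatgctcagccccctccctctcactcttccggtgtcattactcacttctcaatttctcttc
Mgl2: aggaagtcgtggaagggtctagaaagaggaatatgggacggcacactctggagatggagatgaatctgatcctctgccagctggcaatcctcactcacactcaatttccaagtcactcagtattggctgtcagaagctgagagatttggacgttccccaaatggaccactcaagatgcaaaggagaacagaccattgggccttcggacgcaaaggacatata

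These letters occurred once in the Rbpj stretch and in none of the other 3. Among the whole 250-base windows of all 32851 promoters of the table, 7094 (21.6%) held the motif at least once on either strand. A match in a whole window is thus common. The stretches shown for Notch2, Rbpj and Mgl2 are shorter than these windows, so that share is not on their scale. The whole Rbpj window held 2 matches, the other of them outside the stretch shown. Among all promoters, 910 (2.77%) held 2 or more. Of the 9 genes, 6 had a promoter in the table.

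The libraries were checked against their labels with marker lists before the genes were compared. The 6 pan-DC genes (Itgax, H2-Aa, H2-Ab1, Flt3, Zbtb46 and Cd74) were present in all 23 libraries, summing to 10575 CPM or more. Sirpa, which encodes the sorting marker CD172, was at 252 and 196 CPM in untreated DC2, at 13.7 and 91 CPM in untreated DC1b and at no more than 0.676 CPM in any DC1a library. In TLI DC2 it was at 36.7, 9.22 and 309 CPM in pools 1, 3 and 4, so that pool 3, sorted as CD172hi, was low. Within TLI DC1b, Sirpa was at 146 and 141 CPM in pools 1 and 2 and at 5.1 and 6.55 CPM in pools 3 and 4, and Cd8a, which encodes the other sorting marker, was at 302 and 342 CPM and at 79 and 0.327 CPM. In the comparisons that rest on TLI DC2 or TLI DC1b these libraries stand with the others, and values without each are given where a call was lost. Markers of other cells also differed between groups. The 8 plasmacytoid DC (pDC) genes summed to 5897 and 8459 CPM in untreated DC1b and to 313 CPM or less in all other libraries, although the study's lineage gate included B220. The 9 neutrophil genes summed to 1406 to 21048 CPM in TLI DC1b and to no more than 20.2 CPM in untreated DC1b. Transcripts of 7 erythroid genes took 1.93% to 13.4% of the counts in TLI libraries of batch 1 and 0.714% or less elsewhere. The libraries were made from 1000 sorted cells each, and the fit across genes had a biological coefficient of variation of 1.08, so single genes scattered widely between replicates.

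In untreated mice, Cd209a and Clec12a were the genes with the most differences between subsets. Cd209a was about 65 times higher in DC2 than in DC1a and was also high in DC1b, whereas Clec12a was lowest in DC2 and highest in DC1b. Over the 6 pairs of subsets, 9 of 54 gene-by-pair comparisons passed the test (edgeR's quasi-likelihood test with batch as a term, Benjamini-Hochberg adjusted p under 0.05 over 19597 genes), 5 higher and 4 lower, and these belonged to Cd209a (4), Clec12a (4) and Rbpj (1). Of the 54, 29 had an unadjusted p under 0.05, and DESeq2 called 23. By pair, 1434 to 2491 of the 19597 genes had an unadjusted p under 0.05. The number of all genes that DESeq2 called is not given here or below, so its counts stand without that comparison. Each untreated group held only 2 pools, and the p-values rest on a spread estimated over all 23 libraries, those of TLI mice included.

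Read pair by pair, 2 of the 9 genes passed in DC2 against DC1a, where 2.13% of all genes did, 1 in DC2 against DC1b (0.459% of all genes), 2 in DC2 against DC3 (0.913%), 1 in DC1b against DC1a (0.939%), 1 in DC3 against DC1a (0.245%) and 2 in DC3 against DC1b (0.444%). The median log2 fold change of the 9 genes was 2.40 for DC2 over DC1a, beside 0.11 for all genes tested, and 4.21 for DC2 over DC3, beside 0. For DC3 over DC1b it was -2.94, again beside 0. For DC1b over DC1a it was 3.78 beside 0.07, for DC2 over DC1b 0.39 beside 0 and for DC3 over DC1a 0 beside 0.04. The medians for DC2 over DC1a and DC3 over DC1b were the fitted values of Esam. That for DC1b over DC1a was the fitted value of Dtx1. Both genes had groups at or near 0, so these medians are no measure of size. The median for DC3 over DC1a was that of Mgl2, which had no count in either group. All 9 genes passed the filter on low counts, but only Cd209a, Clec12a, Notch2 and Rbpj had at least 10 counts in every library. The pairs share libraries, so they are not independent of each other.

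**Figure D1:**
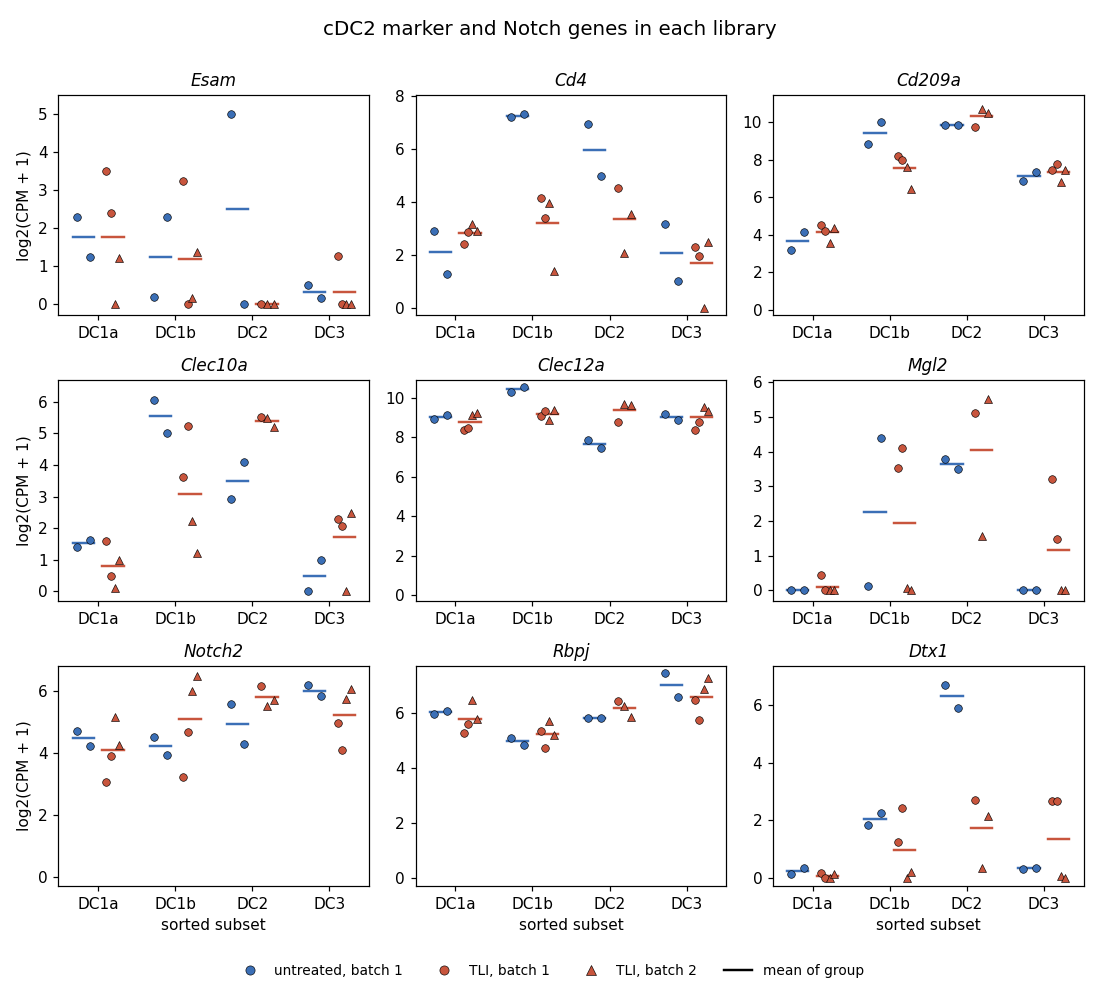
Level of each of the 9 genes in the 23 libraries, as log2(CPM + 1) on the vertical axis, by sorted subset on the horizontal axis. Each point is 1 library (blue, untreated; red, TLI; triangles, batch 2) and bars are group means of the plotted values; Cd209a was lowest in DC1a in both treatments, while Dtx1 reached 59.5 and 103 CPM in untreated DC2 and no more than 5.57 CPM in any other library.

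Cd209a encodes DC-SIGN, a lectin that binds mannose-rich glycans and is a usual marker of cDC2 and monocyte-derived cells. In untreated mice it stood at 929.6 and 937 CPM in DC2, at 462 and 1034 CPM in DC1b, at 116 and 165 CPM in DC3 and at 8.09 and 16.7 CPM in DC1a. The DC2 values lay between the DC1b values, and the other groups did not overlap. The fitted log2 fold change was 6.03 ± 0.65 (SE) for DC2 over DC1a (adjusted p = 9.42e-05) and 5.64 ± 0.64 for DC1b over DC1a (adjusted p = 0.000302). DC3 took a middle place. It was above DC1a by 3.24 ± 0.57 (adjusted p = 0.0236) and DC2 was above it by 2.78 ± 0.56 (adjusted p = 0.0229), while the difference of 0.39 ± 0.52 between DC2 and DC1b did not pass (adjusted p = 0.92). The 10 monocyte and macrophage genes summed to 1572 and 2471 CPM in untreated DC1b, most of it Ly6c2 at 1479.9 and 2348 CPM and with Fcgr1 at 0 in both, beside 252 and 423 CPM in DC2, 156 to 276 CPM in DC3 and 83.8 to 118 CPM in DC1a. Their part in the Cd209a values was not tested. The calls of DC2 and DC1b over DC1a held under every alternative tried, with adjusted p-values up to 0.0288 and 0.0398. The calls against DC3 did not: that of DC2 over DC3 was lost without either library of DC2 or of DC3 (adjusted p from 0.0792 to 0.235), and that of DC3 over DC1a without either DC1a library or without pool 2 of DC3 (0.148 to 0.428), and both were lost in the fit of the 8 untreated libraries alone (0.0757 and 0.122).

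Clec12a, whose product damps the response of myeloid cells to dead cells, was present at high levels in all subsets. In untreated mice it measured 237 and 178 CPM in DC2, 485 and 561 CPM in DC1a, 584 and 466 CPM in DC3 and 1272 and 1539 CPM in DC1b. DC2 was below every other subset and DC1b above, and DC1a and DC3 overlapped. The log2 fold change of DC2 was -2.68 ± 0.29 against DC1b (adjusted p = 0.000276), -1.54 ± 0.28 against DC1a (adjusted p = 0.00627) and -1.28 ± 0.28 against DC3 (adjusted p = 0.0351). DC3 was below DC1b by -1.40 ± 0.28 (adjusted p = 0.0315), and the excess of DC1b over DC1a, 1.14 ± 0.27, did not pass (adjusted p = 0.0616). The DC1b libraries with the high Clec12a were also those with the high pDC sums given above, with Siglech at 1159.5 and 1858 CPM. Their part in the result was not tested. The call against DC1b held under every alternative, with an adjusted p of at most 0.0488. That against DC1a was lost without pool 2 of DC1a (0.0699) or of DC2 (0.127), without the batch term (0.116), and in the fit of the 6 untreated libraries of DC1a, DC1b and DC2 alone (0.0501). With the replicate block, which compares subsets within the same pool of mice, the calls of DC2 against DC3 (adjusted p = 0.064) and of DC3 against DC1b (0.0681) were lost, as they were without the batch term (0.312 and 0.392) and with the 8 untreated libraries alone (0.068 and 0.104). The first was also lost without any of the untreated libraries of DC2, DC3 or DC1a (0.0558 to 0.351) or without TLI DC3 pool 2 (0.05), and the second without any of those of DC1b, DC3 or DC1a (0.0537 to 0.41), without TLI DC2 pool 1 (0.0506) or without TLI DC3 pool 2 (0.0515).

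The galactose-type lectin pair differed from Cd209a in being near or at 0 in some groups. Mgl2 had no count in DC1a or DC3 of untreated mice, and stood at 12.8 and 10.3 CPM in DC2 and at 0.0942 and 20.2 CPM in DC1b. Against a floor of 3 counts per library, the DC2 mean was at least 105-fold higher than DC1a and at least 91.1-fold higher than DC3, but neither passed the test (adjusted p = 0.147 and 0.201). The DC1b mean rested on pool 2 alone. Clec10a stood at 66.3 and 31.1 CPM in DC1b, at 6.59 and 16 CPM in DC2, at 1.67 and 2.12 CPM in DC1a and at 0 and 0.979 CPM in DC3. It was thus highest in DC1b and not in DC2, and no pair of subsets passed (lowest adjusted p = 0.37, DC3 against DC1b, where DESeq2 gave 0.00133).

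Cd4 was high in the same pair of subsets. It measured 148 and 158 CPM in DC1b, 123 and 30.5 CPM in DC2, 6.52 and 1.43 CPM in DC1a and 7.96 and 0.979 CPM in DC3 of untreated mice. DC1b and DC2 lay above DC1a and DC3 without overlap, and the 2 DC2 libraries differed more from each other than the DC1b libraries did. The log2 fold change over DC1a was 4.98 ± 1.71 for DC1b (adjusted p = 0.263) and 4.08 ± 1.64 for DC2 (adjusted p = 0.291), so neither passed, while DESeq2 gave 0.00489 and 0.0249. T cells also make Cd4. The lineage gate of the study's flow cytometry removed CD3+ cells, while the stain listed for the sort held B220 and no CD3. The 9 T cell marker genes summed to 18.9 and 8.24 CPM in untreated DC1b and to 2.69 and 0.571 CPM in untreated DC2, with Cd3e at 0 in both DC1b libraries and at 0.0814 and 0 CPM in DC2. pDCs are known to carry CD4 too, and the pDC sums of DC1b are given above. Their part in the DC1b value was not tested.

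Esam, the surface marker by which Notch2-dependent cDC2 cells are usually recognised, was found in 1 of the 2 untreated DC2 libraries. It was at 31.3 CPM in DC2 of pool 1 and at 0 in DC2 of pool 2, and at 3.87 and 1.35 CPM in DC1a, 0.141 and 3.88 CPM in DC1b and 0.41 and 0.118 CPM in DC3. The group means of DC1a and DC1b, 2.61 ± 1.78 and 2.01 ± 2.64 (SD, n = 2), differed by less than their spread. Esam passed edgeR's test in 0 of the 22 comparisons made (lowest adjusted p = 0.209), with 6 at an unadjusted p under 0.05. DESeq2 called 7, all of them with TLI DC2, where Esam had no count (DC2 against DC1a after TLI, adjusted p = 2.75e-17). Endothelial cells make Esam as well, and 6 endothelial genes were summed, a list added after the data had been seen. In untreated DC2 the sum was 17.2 CPM in pool 1, which held the Esam counts, and 53.2 CPM in pool 2, with Cdh5 at 0.122 and 0.208 CPM. In untreated DC1b it was 53.4 and 84.8 CPM. The part of such cells in the Esam values was not tested.

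Among the Notch genes, Dtx1 had its highest values in untreated DC2. It measured 103 and 59.5 CPM in DC2, 2.59 and 3.8 CPM in DC1b, 0.228 and 0.274 CPM in DC3 and 0.105 and 0.27 CPM in DC1a. Both DC2 libraries were above every other library. The log2 fold change of DC2 was 8.53 ± 2.56 over DC1a (adjusted p = 0.109), 8.37 ± 2.54 over DC3 (0.163) and 4.75 ± 2.14 over DC1b (0.532). None passed in the fit of all 23 libraries with batch as a term. For DC2 over DC1a, DESeq2 gave an adjusted p of 9.31e-06 and the fit of the 8 untreated libraries alone gave 0.0122. Dtx1 was at or under 3 counts in part of the libraries, and its fitted fold changes are no measure of size.

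The receptor and its DNA-binding partner followed another order. Notch2 measured 72.4 and 56.4 CPM in DC3, 47.5 and 18.8 CPM in DC2, 25.3 and 18 CPM in DC1a and 22.2 and 14.2 CPM in DC1b of untreated mice. Both DC3 values were the highest, the other 3 subsets overlapped, and no pair passed (DC3 over DC1b, 1.85 ± 0.72, adjusted p = 0.507). Rbpj measured 171 and 92.8 CPM in DC3, 60.8 and 65.7 CPM in DC1a, 55.5 and 55.3 CPM in DC2 and 32.8 and 27.4 CPM in DC1b. The groups did not overlap, and DC3 exceeded DC1b by 2.15 ± 0.45 (adjusted p = 0.0403). DC2 and DC1a differed by -0.40 ± 0.43 (adjusted p = 0.737). Markers of lymphoid cells were also highest in untreated DC3: the 7 natural killer (NK) cell genes summed to 396 and 220.0 CPM, with Ncr1 at 35.2 and 50.4 CPM and Prf1 at 0, and to 8.52 CPM or less in the other untreated libraries, the 8 B cell genes to 310.5 and 132 CPM beside 9.24 to 130.0 CPM, and the 9 T cell genes to 52.9 and 55.7 CPM beside 0.571 to 18.9 CPM, with Cd3e at 0. Their part in the Notch2 and Rbpj values was not tested. The Rbpj call was lost in 18 of 30 alternatives, with adjusted p-values of 0.0627 to 0.449 when any of the 8 untreated libraries was left out, and of 0.0512 to 0.0601 without TLI DC1a pool 1, 2 or 4, TLI DC1b pool 2, TLI DC2 pool 3 or TLI DC3 pool 1 or 3. It was also lost without the filter on low counts (0.126), without the batch term (0.182) and with the 8 untreated libraries alone (0.0958).

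**Figure D2:**
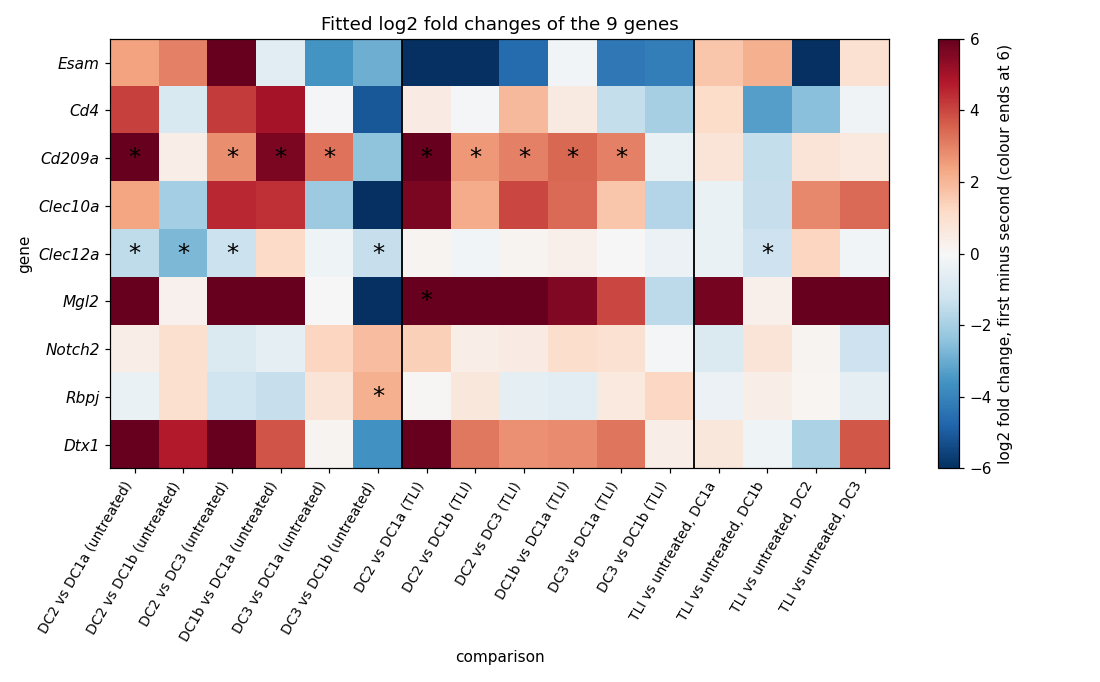
Fitted log2 fold change (colour, first group minus second, ending at 6 either way) of the 9 genes (vertical axis) in 12 subset comparisons and 4 comparisons of TLI with untreated mice (horizontal axis). Stars mark an adjusted p under 0.05; 9 of the 16 stars stood in the Cd209a row, and the colours of Mgl2, Esam and Dtx1 rest on groups at or near 0 and are no measure of size.

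After TLI, Cd209a was again highest in DC2 and lowest in DC1a, and no subset pair of Clec12a passed the test. Over the 6 pairs of subsets, 6 of 54 comparisons passed, all higher and 5 of them of Cd209a, with 18 at an unadjusted p under 0.05 and 16 called by DESeq2. By pair, 2004 to 3386 of the 19597 genes were at an unadjusted p under 0.05. In TLI libraries, 2 of the 9 genes passed in DC2 against DC1a, beside 3.43% of all genes, 1 in DC2 against DC1b (0.225%), 1 in DC2 against DC3 (1.33%), 1 in DC1b against DC1a (1.44%), 1 in DC3 against DC1a (0.750%) and 0 in DC3 against DC1b (1.14%). In that last comparison edgeR's test gave 1 gene at an unadjusted p under 0.05 and DESeq2 called 1. Within batch 1 alone 1 of the comparisons passed and within batch 2 alone also 1, in each case Cd209a in DC2 over DC1a.

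Cd209a measured 853, 1668 and 1436 CPM in the 3 TLI DC2 libraries and 22.3, 17.1, 10.6 and 19.8 CPM in the 4 TLI DC1a libraries. It measured 294, 256, 196 and 86 CPM in TLI DC1b and 172, 219, 109.9 and 173 CPM in TLI DC3. DC2 was above and DC1a below every other library, and DC1b and DC3 overlapped (DC3 over DC1b, -0.41 ± 0.37, adjusted p = 0.725). DC2 exceeded DC1a by 6.05 ± 0.47 (adjusted p = 7.21e-07), DC3 by 3.01 ± 0.42 (0.00101) and DC1b by 2.6 ± 0.42 (0.0124). DC1b and DC3 exceeded DC1a by 3.45 ± 0.41 (adjusted p = 9.44e-05) and 3.04 ± 0.40 (0.000598). Without pool 3 of DC2 the call over DC1b was lost (adjusted p = 0.0597), and within batches that difference was 1.42 in batch 1 and 3.26 in batch 2.

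Clec12a after TLI measured 442, 827 and 790.3 CPM in DC2, 537, 649, 468 and 669 CPM in DC1b, 334, 350.5, 561 and 602 CPM in DC1a and 332, 433, 757 and 659 CPM in DC3. All 4 groups overlapped, and none of the pairs passed (adjusted p from 0.499 to 1). In DC1a and DC3 the pair of batch 2 libraries was above the pair of batch 1 libraries, as was the case in DC2 for both batch 2 libraries over the single one of batch 1.

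Mgl2 was the other gene that passed after TLI. It measured 33.3, 1.96 and 44.3 CPM in DC2 and 0.352, 0, 0 and 0 CPM in DC1a, and all DC2 libraries were above all DC1a libraries (adjusted p = 0.0122). It was lost without the batch term (0.216) and within either batch alone (0.323 and 0.27). Its level in DC1b was 10.6, 16.3, 0.0554 and 0 CPM and in DC3 8.34, 1.81, 0 and 0 CPM, so that in both subsets the counts stood almost wholly in pools 1 and 2. Clec10a had a like order, with 45, 43.5 and 35.8 CPM in DC2, 11.3, 37.1, 3.68 and 1.31 CPM in DC1b, 3.88, 3.21, 0 and 4.64 CPM in DC3 and 2, 0.404, 0.0811 and 1 CPM in DC1a. The lowest of these DC2 values was just under the 37.1 CPM of DC1b pool 2 and all 3 were above the remaining TLI libraries. The excess of DC2 over DC1a, 5.66 ± 1.53, narrowly missed the threshold (adjusted p = 0.0512).

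Cd4 and Dtx1 were low in every TLI library. Cd4 measured 21.7, 3.13 and 10.6 CPM in DC2, 16.6, 9.49, 14.5 and 1.58 CPM in DC1b, 4.29, 6.18, 7.92 and 6.52 CPM in DC1a and 3.88, 2.88, 0 and 4.58 CPM in DC3. The subsets overlapped and no pair passed (lowest adjusted p = 0.494). The T cell genes were higher in TLI batch 1 than in untreated libraries, with Cd3e at 17.8 and 2.93 CPM in TLI DC1b of pools 1 and 2 and at 6.46 CPM in TLI DC2 of pool 1. Dtx1 measured 5.57, 0.271 and 3.45 CPM in DC2, 1.39, 4.4, 0 and 0.149 CPM in DC1b, 5.4, 5.35, 0.0351 and 0 CPM in DC3 and 0.106, 0, 0 and 0.0815 CPM in DC1a. Against the floor of 3 counts per library the DC2 mean was at least 32.7-fold higher than DC1a (adjusted p = 0.0742), and DC2 overlapped DC1b and DC3. Esam had no count in any TLI DC2 library, and its values were 10.4, 4.26, 0 and 1.33 CPM in DC1a, 8.49, 0, 0.111 and 1.61 CPM in DC1b and 1.42, 0, 0 and 0 CPM in DC3.

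Notch2 and Rbpj were present in every TLI library. Notch2 measured 70.4, 45 and 51.8 CPM in DC2, 8.36, 24.9, 63.2 and 88.3 CPM in DC1b, 30.7, 16.2, 53.3 and 65.9 CPM in DC3 and 7.35, 14, 35.3 and 18.3 CPM in DC1a of TLI mice. DC2 was above DC1a in all libraries and overlapped the others (DC2 over DC1a, 1.44 ± 0.54, adjusted p = 0.167). In DC1a, DC1b and DC3 both libraries of batch 2 were above both of batch 1. Rbpj measured 87.2, 52, 114 and 152 CPM in DC3, 84.7, 75.4 and 56.3 CPM in DC2, 37.2, 46.9, 87.8 and 53.6 CPM in DC1a and 39.7, 25.3, 50.7 and 35.6 CPM in DC1b. As in untreated mice DC3 was highest by its mean and DC1b lowest, and every DC3 library was above every DC1b library, with a difference of 1.24 ± 0.31 (adjusted p = 0.0682). In TLI DC3 of pools 1 to 4 the NK cell genes summed to 3837, 930.4, 42.3 and 83.7 CPM. The T cell genes summed to 723, 312, 4.15 and 38.5 CPM there, and the B cell genes to 52.8 to 57.8 CPM. Their part in the Notch2 and Rbpj values after TLI was not tested.

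**Figure D3:**
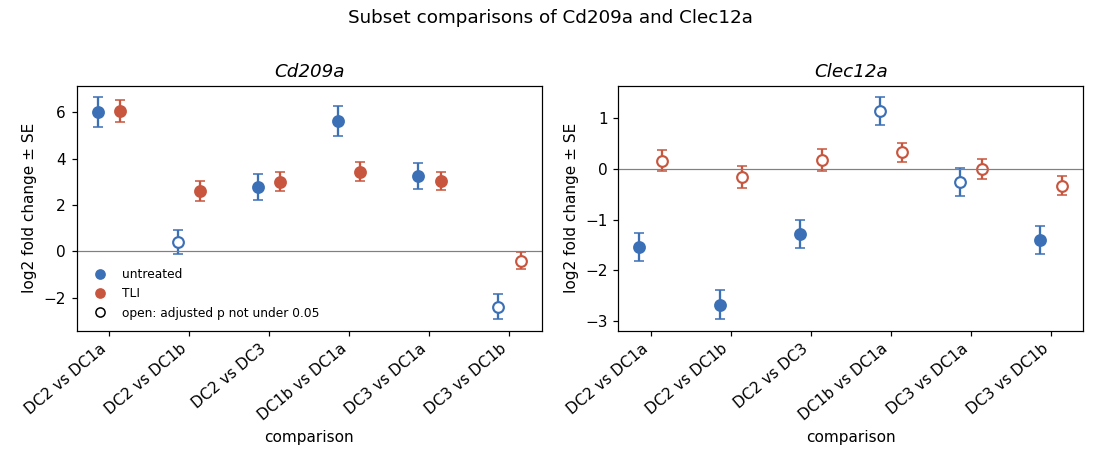
Fitted log2 fold change ± SE (vertical axis) of Cd209a and Clec12a in the 6 subset comparisons (horizontal axis), in blue for untreated and red for TLI mice, with filled points where the adjusted p was under 0.05. Cd209a in DC2 over DC1a was 6.03 and 6.05, while Clec12a in DC2 over DC1b went from -2.68 to -0.16.

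When TLI was compared with no treatment within each subset, 1 of 36 comparisons passed: Clec12a fell in DC1b, from 1406 ± 189 CPM (SD, n = 2) to 581 ± 95 CPM (SD, n = 4), a log2 fold change of -1.24 ± 0.24 (adjusted p = 0.0238). All 4 TLI values, 468 to 669 CPM, were below both untreated values. Of the 36, 7 had an unadjusted p under 0.05, and DESeq2 called 5. By subset, 1727 to 2368 of the 19597 genes had an unadjusted p under 0.05. In DC1b 0.454% of all genes passed. In DC1a, DC2 and DC3, where 0.0102%, 0.117% and 0.0255% of all genes passed, edgeR's test called 0 of the 9 genes, with 0, 3 and 1 at an unadjusted p under 0.05, and DESeq2 called 0, 3 and 1. The median log2 fold change of the 9 genes was -0.28 in DC1b beside 0.09 for all genes tested, 0.66 in DC1a beside 0.15, 0.17 in DC2 beside 0.02 and 0.57 in DC3 beside -0.05. The medians in DC1b and DC1a were the fitted values of Dtx1, which are no measure of size. In DC1a the mean of Dtx1 was 0.0467 CPM after TLI and 0.187 CPM in untreated mice, although its fitted value was positive.

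The Clec12a call in DC1b depended on single libraries and on the batch. It was lost without untreated DC1b pool 1 (adjusted p = 0.113) or pool 2 (0.27) and without the batch term (0.391), and with batch 1 alone the difference was -0.93 (0.204). The TLI libraries of batch 2 alone against the untreated libraries gave -0.98 (0.0533), a comparison in which batch and treatment cannot be told apart. Between untreated and TLI DC1b the pDC genes went from sums of 5897 and 8459 CPM to sums of 62 to 174 CPM and the neutrophil genes from at most 20.2 CPM to at least 1406 CPM, and their part in the difference was not tested. In DC2, Clec12a had a mean of 208 ± 42.3 CPM (SD, n = 2) in untreated and 686 ± 212 CPM (SD, n = 3) in TLI mice, a log2 fold change of 1.28 ± 0.28 that did not pass (adjusted p = 0.097). Between untreated and TLI DC2 the neutrophil sums went from 1.63 and 2.34 CPM to 2322, 214 and 110.2 CPM, with Ly6g at 13.1, 0 and 0 CPM after TLI. The monocyte and macrophage sums were 252 and 423 CPM in untreated and 2473, 365 and 353 CPM in TLI DC2. The part of these in the Clec12a values was not tested.

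The remaining shifts were large in CPM for a few genes but did not pass. Cd4 in DC1b had a mean of 153 ± 7.04 CPM (SD, n = 2) in untreated and 10.5 ± 6.66 CPM (SD, n = 4) in TLI mice, without overlap (-3.32 ± 1.28, adjusted p = 0.315). Dtx1 in DC2 had a mean of 81.1 ± 30.5 CPM (SD, n = 2) against 3.1 ± 2.67 CPM (SD, n = 3), also without overlap (adjusted p = 0.87). The fit with the batch term set the latter difference at -1.88 ± 2.21. Its batch term was shared by all subsets, so this is not the difference seen within batch 1. There Dtx1 in DC2 was at 103 and 59.5 CPM in untreated mice and at 5.57 CPM in the single TLI library. Cd209a in DC1b had 748 ± 404 CPM against 208 ± 90.7 CPM (-1.42 ± 0.45, adjusted p = 0.215), and in DC2 934 ± 5.56 against 1319 ± 420.1 CPM (0.79 ± 0.54, adjusted p = 0.692).

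Whether a subset difference itself changed with TLI was tested by the difference between the TLI and the untreated fold change of each pair of subsets. Of the 54 such tests 1 passed, with 15 at an unadjusted p under 0.05 and 8 called by DESeq2: Clec12a in DC2 relative to DC1b shifted by 2.51 ± 0.35 (adjusted p = 0.011), from -2.68 in untreated to -0.16 in TLI mice. The pDC sums of DC1b and the neutrophil sums of DC1b and DC2 given above also differed between the treatments, and their part in this shift was not tested. By pair, 776 to 1682 of the 19597 genes had an unadjusted p under 0.05 for such a change. The test of changed differences called 0.133% of all genes for DC2 against DC1b. For DC2 against DC1a, DC2 against DC3, DC1b against DC1a, DC3 against DC1a and DC3 against DC1b it called 0.0255%, 0.0408%, 0.0408%, 0.00% and 0.0357% of all genes and none of the 9, while 2, 2, 3, 0 and 4 of them were at an unadjusted p under 0.05 and DESeq2 called 2, 2, 1, 0 and 0. The Clec12a shift was lost without untreated pool 2 of DC1b (adjusted p = 0.0566) or of DC2 (0.0524), without the batch term (0.0703) and in batch 1 alone, where it was 2.08 (0.158). For Cd209a the same contrast was 2.21 ± 0.68 (adjusted p = 0.371).

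**Figure D4:**
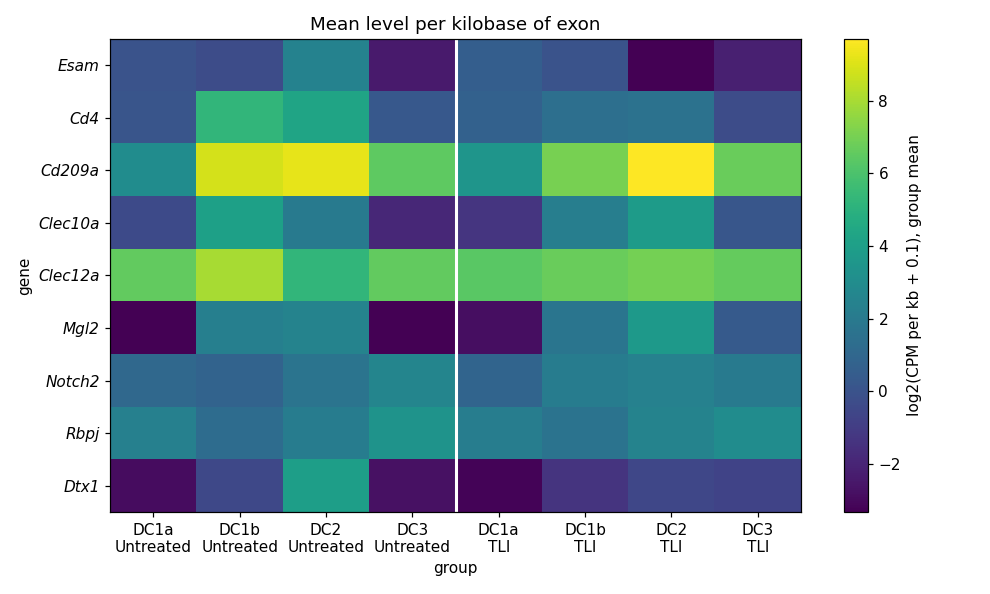
Mean level of the 9 genes per kilobase of exon, as log2(CPM per kb + 0.1) in colour, by gene (vertical axis) and by group of subset and treatment (horizontal axis). Cd209a in DC2 was the brightest cell in both treatments, at 589.7 and 833 CPM per kb.

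To compare genes with each other, CPM were divided by exon length in kilobases. Cd209a led in DC2 with 589.7 CPM per kb in untreated and 833 CPM per kb in TLI mice, followed by Clec12a with 37.5 and 124 CPM per kb. In DC1b the pair had 472 and 254 CPM per kb in untreated and 131 and 105 CPM per kb in TLI mice. In DC1a of both treatments and in DC3 of untreated mice Clec12a led, with 94.6 CPM per kb beside 7.83 for Cd209a in untreated DC1a. The Notch genes were lower: Rbpj had 2.36 to 10.4 and Notch2 1.69 to 5.97 CPM per kb over the 8 groups. Dtx1 had 15.4 CPM per kb in untreated DC2 and 0.606 CPM per kb or less in the other groups.

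The genes most like each of the 9 across the 23 libraries were sought by Pearson's r of log2 CPM over 10146 genes with a mean of at least 5 CPM. The highest were S100a4 (r = 0.911) and Ms4a4c (0.91) for Cd209a, and Gapt (0.825) was among those for Clec10a. Dtx1 was most like Il2rg (0.831) and Ltb (0.82), and Mgl2 was most like Dtx1 itself (0.812) and Cfp (0.805). Cd4 was most like Zfp758 (0.831) and Snx5 (0.801), Clec12a like Svbp (0.788) and Rnase6 (0.775), Notch2 like Taf4 (0.806) and Lmo4 (0.796), and Rbpj like Polr2f (0.759) and Zfas1 (0.735). Esam had the weakest, Stap2 (0.733) and Gm3724 (0.652, over 10147 genes). Among the 9 themselves, Cd209a had r = 0.74 with Mgl2, 0.69 with Clec10a and 0.662 with Dtx1, Clec10a had 0.71 with Mgl2, and Notch2 had 0.527 with Rbpj. These r values describe 23 libraries that share pools, batches and group differences.

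Of 54 other Notch pathway genes, 49 passed the filter on low counts. In untreated mice 6 gene-by-pair comparisons passed. In DC2, 2 genes were higher against DC1a (2.13% of all genes passed in that pair), 2 against DC1b (0.459%) and 1 against DC3 (0.913%). In DC1b against DC1a 1 gene was lower (0.939%). In DC3 against DC1a and against DC1b, where 0.245% and 0.444% of all genes passed, none of the 49 passed edgeR's test. At an unadjusted p under 0.05 were 5 and 5 of them, beside 1434 and 1630 of the 19597 genes, and DESeq2 called 2 and 1. The median log2 fold change of the 49 was 0.73 in DC2 over DC1a, beside 0.11 for all genes, and between -0.06 and 0.45 in the other 5 pairs. After TLI 5 passed, at most 1 in any pair, beside 0.225% to 3.43% of all genes by pair. DESeq2 called 19 in the untreated and 27 in the TLI comparisons.

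Neurl3, which encodes a Neuralized-type ubiquitin ligase, recurred in these comparisons. It measured 148 and 348 CPM in untreated DC2, 50 and 33.8 CPM in DC3, 21.7 and 28 CPM in DC1a and 7.16 and 21.4 CPM in DC1b. DC2 was above every other untreated library, by 3.10 ± 0.61 over DC1a (adjusted p = 0.0108), 4.17 ± 0.64 over DC1b (0.00537) and 2.62 ± 0.60 over DC3 (0.0489). After TLI it was at 213, 42.2 and 46.3 CPM in DC2 and at 14.5, 26.5, 8.49 and 8.2 CPM in DC1a, a difference of 2.51 ± 0.44 (0.00307). The call after TLI was lost in 2 of 32 alternatives, over which the difference ran from 2.02 to 3.14. The untreated calls of Neurl3 were all lost without the batch term. That over DC1a was lost without either DC1a library or pool 2 of DC2 (0.117 to 0.211), and that over DC1b without pool 1 of DC1b (0.0921). That over DC3 was lost with the replicate block (0.0896), without any untreated library of DC1a, DC2 or DC3, and without any TLI library of DC1a or DC3, TLI DC1b pool 2 or 4 or TLI DC2 pool 4 (0.0519 to 0.41).

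The protease gene Adam17, whose product can cut Notch receptors at the cell surface, measured 223 and 239 CPM in untreated DC2, 119 and 133 CPM in DC1b, 101 and 22.4 CPM in DC3 and 10.4 and 21.1 CPM in DC1a. DC2 was above all other libraries and exceeded DC1a by 3.66 ± 0.71 (adjusted p = 0.00939), a call lost without either DC1a library (0.211 and 0.0645). Aph1c, a subunit of the gamma-secretase that releases the intracellular part, was low in untreated DC1b at 28 and 23.3 CPM, beside 124 and 161 CPM in DC1a and 135 and 85.3 CPM in DC2. It was lower in DC1b than in DC1a by -2.77 ± 0.46 (adjusted p = 0.00619) and higher in DC2 than in DC1b by 2.20 ± 0.46 (0.0415), and it rose in DC1b after TLI by 2.23 ± 0.44 (0.0287), to 71.3, 93.5, 59.3 and 93.2 CPM. After TLI it was lower in DC3 than in DC1a by -1.70 ± 0.32 (0.0124). Aph1c shares 12.5% of its 76-base windows with Aph1b, so its counts carry that uncertainty. The calls of Aph1c in untreated mice were lost without either untreated DC1b library or without pool 2 of DC1a (0.0704 to 0.362), and that of DC2 over DC1b also with the replicate block (0.0646) and without pool 1 of untreated DC1a, either untreated DC2 library, any TLI DC1a library, TLI DC1b pool 2 or TLI DC3 pool 1 or 4 (0.0507 to 0.281). The rise after TLI was lost without any untreated library of DC1a or DC1b or without TLI DC1b pool 2 (0.0515 to 0.27), and the difference of TLI DC3 to DC1a without TLI DC3 pool 3 or 4 (0.0699 and 0.0681).

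Hes1, a classical Notch target that encodes a repressor, was the only target on this list that passed in a subset comparison. In untreated mice it measured 81.1 and 68.4 CPM in DC2, 39.9 and 12 CPM in DC1b, 32 and 16.6 CPM in DC1a and 8.51 and 4.35 CPM in DC3. After TLI it measured 90, 169 and 223 CPM in DC2, 29.4, 49.7, 267 and 429.9 CPM in DC1b, 14.8, 22.5, 31.1 and 58.6 CPM in DC1a and 7.67, 3.4, 1.65 and 6.38 CPM in DC3. All DC3 values were below all others within each treatment, and after TLI DC2 exceeded DC3 by 4.42 ± 0.75 (adjusted p = 0.0042) and DC3 was below DC1b by -4.77 ± 0.76 (0.00345). In TLI DC1b the high values were those of batch 2, and neither difference passed within batch 1 alone (0.214 and 0.424) or batch 2 alone (0.0786 and 0.0623). The ubiquitin ligase gene Mib1 was higher in TLI DC1b, at 14.1, 8.69, 53.7 and 36.1 CPM, than in TLI DC1a, at 2.38 to 4.97 CPM (2.53 ± 0.58, adjusted p = 0.0359). That call was lost with the replicate block (0.0544), without any untreated library of DC1a, DC2 or DC3 and without TLI DC1a pool 2, 3 or 4 or TLI DC1b pool 1, 3 or 4 (0.0535 to 0.148). The other hairy-related targets were barely present: Hes5, Hey2 and Heyl did not exceed 1.66 CPM, and Hey1 reached 4.62 CPM in 1 library.

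The other receptors and the ligands did not pass in any comparison. Notch1 measured 20.5 and 9.39 CPM in DC1b and 18.2 and 11 CPM in DC3 of untreated mice, and 1.19 CPM or less in DC2 and DC1a. Notch3 reached 8.78 CPM and Notch4 69.3 CPM, the latter in a single TLI DC1a library. Of the ligands, Dll4 stood at 13.7 and 16.9 CPM in untreated DC1b, and at 1.51 CPM or less in all other libraries. It had no count in any TLI DC1b library, so that the untreated mean was at least 148-fold higher against the floor of 3 counts per library. Dll1 likewise stood at 7.58 and 3.64 CPM in untreated DC1b and at 0.118 CPM or less in the other untreated libraries, and at 3.36 and 3.8 CPM in TLI DC3 of pools 1 and 2. The DC1b libraries with Dll1 and Dll4 were those with the high pDC sums, whose part was not tested. Dll3 did not exceed 0.139 CPM. Jag1 reached 15.2 CPM in untreated DC1a and 18.2 CPM in TLI DC1b, and Jag2 reached 23.9 CPM in untreated DC3.

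**Figure D5:**
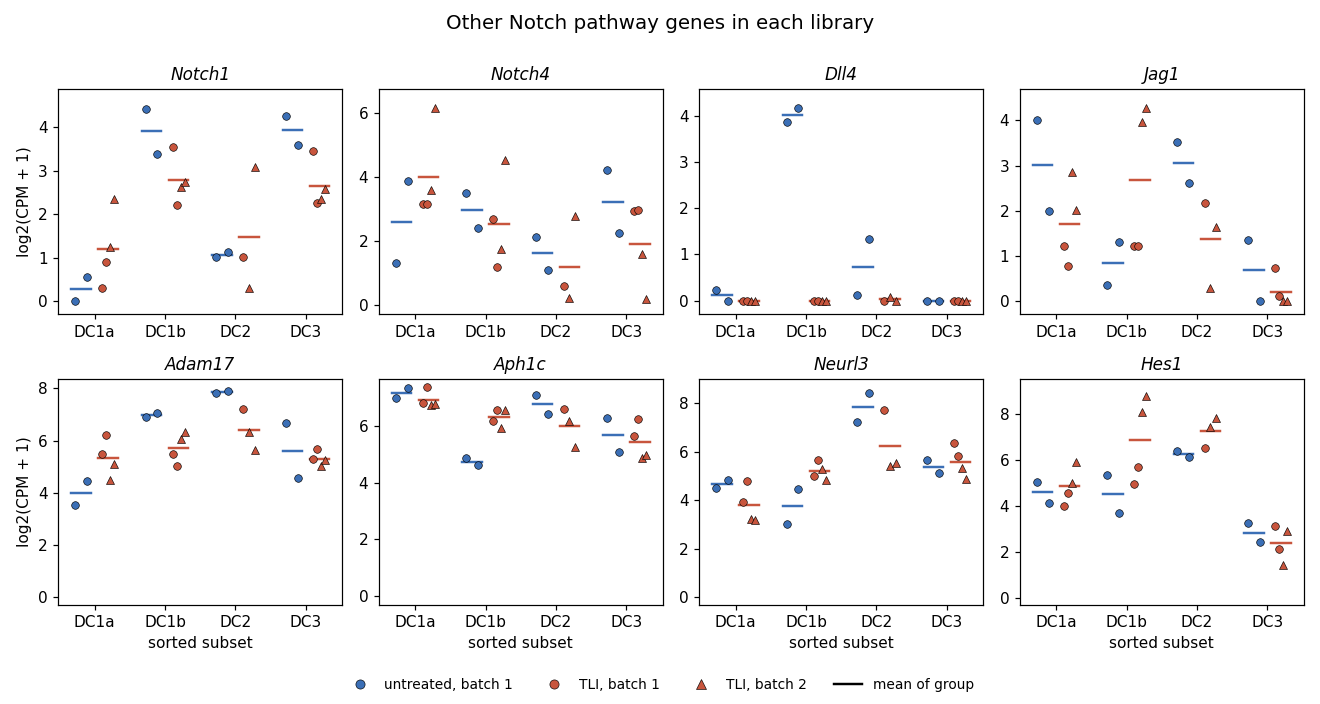
Level of 8 other Notch pathway genes in the 23 libraries, as log2(CPM + 1) on the vertical axis, by sorted subset on the horizontal axis, with colours and symbols for treatment and batch and bars for group means of the plotted values. Dll4 counts stood almost wholly in the untreated DC1b libraries (13.7 and 16.9 CPM), and Hes1 was lowest in DC3.

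The 24 other cDC2 genes gave the setting in which the 6 markers stand. In untreated mice 9 of the 24 were higher in DC2 than in DC1a, where 2.13% of all genes passed in either direction. In DC2 5 were higher than in DC3 (0.913%), in DC1b 5 than in DC1a (0.939%) and in DC3 3 than in DC1a (0.245%). In DC2 against DC1b (0.459%) and DC3 against DC1b (0.444%) edgeR's test called none. At an unadjusted p under 0.05 were 8 and 6, beside 1762 and 1630 of the 19597 genes, and DESeq2 called 2 and 5. The passing genes were all on the higher side. The median log2 fold change of the 24 was 3.65 for DC2 over DC1a, beside 0.11 for all genes, and 1.03 for DC2 over DC1b, beside 0. After TLI the counts higher were 16, 8, 13 and 5 in the same 4 pairs, beside 3.43%, 1.33%, 1.44% and 0.750% of all genes. In DC2 against DC1b, where 0.225% of all genes passed, none of the 24 did (7 at an unadjusted p under 0.05, 1 by DESeq2). In DC3 against DC1b (1.14% of all genes) 1 was higher and 6 were lower. None of these comparisons is free of the sort, since CD172 separated the subsets and its gene Sirpa is on the list.

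The genes of this list that led were well expressed. S100a4, a calcium-binding protein of migrating cells, measured 825 and 671 CPM in untreated DC2 and 4.04 and 12.7 CPM in DC1a (6.28 ± 0.72, adjusted p = 0.000153), although 44.7% of its windows also occur in Gm42674. The lectin gene Clec4a2 was higher in DC2 than in DC1a by 4.99 ± 0.67 (0.000564), and the transcription factor gene Zeb2 by 5.55 ± 1.27 (0.029). Clec7a (dectin-1) exceeded DC3 in DC2 by 4.60 ± 1.05 (0.0483), with 250.3 and 401 CPM beside 11.6 and 16.1 CPM. The chemokine receptor gene Ccr2 and the oxysterol receptor gene Gpr183 were higher in DC3 than in DC1a, by 3.78 ± 0.67 (0.0236) and 3.47 ± 0.48 (0.00481). The calls of S100a4 and Clec4a2 in DC2 over DC1a held under every alternative. That of Zeb2 was lost with the replicate block (0.0694) and without either library of DC1a or DC2 (0.0555 to 0.354). That of Clec7a was lost with the replicate block (0.0777), without any of the 8 untreated libraries (0.0622 to 0.339) and without TLI DC1a pool 1, 2 or 4, any TLI DC1b or TLI DC2 library or TLI DC3 pool 2 (0.0505 to 0.0636). Those of Ccr2 and Gpr183 were lost without either DC1a library or pool 2 of DC3, and that of Ccr2 also without pool 1 of DC3 (0.0548 to 0.406).

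Between treatments 1 of the 24 genes passed, in DC1b, where 0.454% of all genes passed. Lyz2, which encodes the lysozyme of monocytes, macrophages and neutrophils, rose from 1929 and 3169 CPM to 18205, 23476, 7986 and 6898 CPM (3.29 ± 0.33, adjusted p = 0.000427). In pools 1 to 4 of TLI DC1b the neutrophil genes summed to 21048, 1406, 1744 and 9202 CPM. The monocyte and macrophage genes summed to 2629, 2527, 539 and 424 CPM there, beside 1572 and 2471 CPM in untreated DC1b. The part of either list in the Lyz2 values was not tested. Without the batch term the Lyz2 call was lost (0.178). In DC1a, DC2 and DC3, where 0.0102%, 0.117% and 0.0255% of all genes passed, edgeR's test called none of the 24. At an unadjusted p under 0.05 were 6, 4 and 0, and DESeq2 called 1, 2 and 0.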

How the data were processed

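RNA of sorted DCs (1000 cells per library, SMART-Seq v4 cDNA, KAPA HyperPlus libraries) was sequenced by the authors, who trimmed reads with Trimmomatic 0.36, aligned them to GRCm38 with HISAT2 2.1.0 and assembled transcripts with StringTie 1.3.1c on Ensembl release 84. The deposited table holds their estimated counts per gene, whole numbers for 47729 ids. Whether reads were counted by strand is not given in the sources used here. The methods describe them as counts of reads mapped to unique places in known mRNAs, so reads from stretches shared by copies such as Mgl2 and Clec10a may have been left out. Symbols, exon lengths and positions came from GENCODE M21 (47224 ids matched, 505 not), and promoters from RefSeq.

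CPM used the total of all ids. Fold changes came from edgeR 4.0.16 in R 4.3.3 (TMM, filterByExpr by group, quasi-likelihood test), fitted to all 23 libraries with 8 groups and batch as a term (14 residual degrees of freedom), with Benjamini-Hochberg adjustment over 19597 genes and a threshold of 0.05. Untreated libraries are all of batch 1, so the batch term rests on the TLI pools. DESeq2 1.42.0 was an alternative, as were other filters, size factors, fits without the batch term or on fewer libraries, and leaving out each library. The fit was also run on simulated data, but the outcome is not given here and no support is drawn from it. The 9 members and the gene lists were chosen with earlier results of these data known. Beyond the members, receptors and ligands, list genes were named where they were among the up to 4 with the largest absolute log2 fold change past the threshold and a mean of at least 5 CPM in the higher group, and the 2 genes most like each member were taken by Pearson's r of log2 CPM (prior count 2). For Clec10a 1 of these is not reported here. The motif was sought on both strands of the 250 upstream bases.

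Samples were grouped by the subset and treatment in their labels. The labels give subsets of the same pool number within a treatment the same pool of mice, so a replicate block of pool within treatment was fitted for subset comparisons. The correlation of residuals of same-pool libraries ran from -0.00585 to 0.0159 in untreated mice (12 pairs) and from -0.162 to 0.0673 after TLI (21 pairs). Each untreated group held 2 libraries, so untreated pools 1 and 2 gave the same values and are not independent. TLI and untreated pools are different mice and were not paired. No libraries were identical: over 25 pairs within groups the lowest chi-square per degree of freedom was 81.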

Additional observations from a re-analysis of the deposited data

Results flagged for a closer look

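In 27 sets of 4 libraries of 1 group, 2 held a value far from the other 3. In both the other 3 were at 0, so that any count stands apart, and the usual chance rate of about 1 in 20 does not apply. Esam in TLI DC3 was at 1.42 CPM in pool 1 and at 0 in pools 2, 3 and 4. Mgl2 in TLI DC1a was at 0.352 CPM in pool 1 and at 0 in the others.

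For Clec12a, the log2 fold change of DC2 over DC1b differed between TLI and untreated mice by 2.51 ± 0.35 (edgeR's quasi-likelihood test, adjusted p = 0.011), with untreated libraries at 237 and 178 CPM in DC2 and 1272 and 1539 CPM in DC1b and TLI libraries at 442, 827 and 790.3 CPM in DC2 and 537, 649, 468 and 669 CPM in DC1b.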

How the results depend on the processing

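Of the 17 calls of the 9 genes, 4 passed under every alternative (Cd209a in DC2 and in DC1b over DC1a and Clec12a in DC2 against DC1b in untreated mice, and Cd209a in DC2 over DC1a after TLI) and 0 changed direction; of 48 calls of other list genes, 3 passed under every alternative. The counts of passing comparisons moved by over 1.5 times as follows, with causes not tested. With DESeq2's Wald test the 9 genes had 23 calls in untreated mice (9 in the fit reported), 16 after TLI (6), 5 for TLI against untreated (1) and 8 for the change of subset differences (1), the other Notch genes had 19 (6), 27 (5) and 7 (1), and the other cDC2 genes 57 in untreated mice (22) and 7 for TLI against untreated (1). Without the batch term the 9 genes had 5 in untreated mice, 0 for TLI against untreated and 0 for the change of differences, the Notch genes 2, 3 and 0, and the cDC2 genes 8 in untreated mice and 0 for TLI. With at least 10 counts in every library the Notch genes had 9 after TLI and 2 for TLI against untreated, and the cDC2 genes 34 in untreated mice. With batch 1 alone the 9 genes had 1 call after TLI, 0 for TLI against untreated and 0 for the change of differences, the Notch genes 0 and 0, and the cDC2 genes 0 of 49 after TLI; with batch 2 alone after TLI these were 1, 0 and 18. These fits have fewer libraries. With the 8 untreated libraries alone the Notch genes had 1 call, and with the 6 of DC1a, DC1b and DC2, 3 (5 in those comparisons). TLI pools 3 and 4 against untreated, an alternative chosen after seeing the data, gave 2, 3 and 4 calls, and for Mgl2 in DC3 a difference of 0.

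Leaving out each of the 23 libraries, the 9 genes had 4 to 10 calls in untreated mice, 5 to 7 after TLI, 0 to 2 for TLI against untreated and 0 to 2 for the change of differences, the Notch genes 1 to 6, 4 to 8 and 0 to 2, and the cDC2 genes 8 to 23, 37 to 49 and 1 to 2. Without untreated DC2 pool 1, the library that held all DC2 counts of Esam, the Esam log2 difference of TLI to untreated in DC2 turned to 2.04, and its change of difference to 0.38 against DC1a and 1.13 against DC3. Over all libraries left out, these 3 values ran down to -10.72, -12.37 and -11.70. The replicate block gave 7 calls for the 9 genes in untreated mice, 6 after TLI and 1 for the change of differences, ending of their calls only those of Clec12a in DC2 and DC1b against DC3. With it the Notch genes had 4 calls in untreated mice and 4 after TLI, and the cDC2 genes 19 and 45. At this depth a gene with no count in a library could still be present at up to 3 counts, which bears on Mgl2, Dtx1 and Esam.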
